A study of Mus musculus with 6 samples.

Results

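The genes of calcium store release and store-operated calcium entry were followed in molar tissue of mice with and without *Ror2* in the dental mesenchyme. They were chosen by name, as the subtypes of 4 protein families, and make up 10 of 27506 listed genes: the IP3 receptors *Itpr1*, *Itpr2* and *Itpr3*, the SERCA pumps *Atp2a2* and *Atp2a3*, the store sensors *Stim1* and *Stim2*, and the entry channels *Orai1*, *Orai2* and *Orai3*. All 10 passed the filter on low counts. The tissue was labelled as dental pulp of the mandibular first molar from C57BL/6 mice at PN3.5 (postnatal day 3.5), around the start of root formation. The control group held 3 libraries labelled *Ror2fl/fl*, which names floxed *Ror2* alleles and no Cre. The sample titles also hold a letter code, given below with *Itpr1*, that is not explained and differs among the control libraries. The mutant group held 3 libraries labelled *Osr2-Cre;Ror2fl/fl*. By these labels both groups share the floxed alleles, and no library analysed here was labelled as *Osr2-Cre* alone. By the study's lineage tracing, *Osr2-Cre* acts in the dental mesenchyme and alveolar bone and not in the dental epithelium, so epithelial cells of the mutants keep *Ror2*. The labels do not say whether the libraries of a group came from separate animals, so p-values measure the spread between these libraries only.

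*Ror2* is a receptor for Wnt5a, a ligand of noncanonical Wnt signaling, and one branch of that signaling acts through calcium. In the general pathway, phospholipase C makes IP3, which opens IP3 receptors in the membrane of the endoplasmic reticulum (ER) and lets stored calcium out into the cytosol. SERCA pumps return calcium to the store. When the store runs low, STIM proteins in the ER membrane sense the loss, move to sites where the ER touches the plasma membrane, and open Orai channels there, which is called store-operated calcium entry. In teeth the pathway is best known from enamel-forming cells, and loss of STIM1 or ORAI1 function in people is known to impair enamel mineralization.

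The libraries held 56134770 to 62628940 estimated counts. Levels are given in CPM, a gene's counts scaled to a common library total, with library sizes adjusted by the TMM method. *Ror2* itself, the targeted gene, was at 36.2 to 38.2 CPM in control and at 26.3 to 28.1 CPM in mutant libraries. This was 26.0% lower, a log2 fold change of -0.43 (adjusted p = 0.0134, edgeR). The call was lost in 3 of 17 alternative analyses. Mesenchymal, odontoblast and epithelial markers were all present. Epithelial markers were abundant although the tissue was labelled as pulp. The summed level of 8 of them was 171344 to 191668 CPM in control and 184923 to 255203 CPM in mutant libraries. *Amelx* alone, which codes for the enamel protein amelogenin, was at 88628 to 99214 CPM and 122716 to 160441 CPM. The enamel gene *Enam* went the other way, at 18314 to 21230 CPM in control and 9922 to 16604 CPM in mutant libraries. Of the 8, 6 had a log2 fold change above 0 and 2 had one below 0. None of the 8 epithelial and none of the 6 odontoblast markers passed the test between groups. The odontoblast sum, mostly *Col1a1*, overlapped (14790 to 46764 CPM and 13261 to 36087 CPM). Of 8 dental mesenchyme markers, 7 had a log2 fold change below 0. Of these, 1 passed, *Prrx1*, lower in mutant tissue (log2 fold change -0.69, adjusted p = 0.0178, edgeR). The mesenchyme sum, mostly *Vim*, overlapped (1237 to 1531 CPM and 1133 to 1385 CPM). The part of any of these cell types in the differences described here was not tested. Differences between the groups also moved with base composition: the median log2 fold change was -0.22 over the third of genes with the lowest exonic GC content and 0.19 over the third with the highest.

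The promoters were examined first, because 2 of the members that were lower in every mutant library, *Itpr2* and *Stim2*, and the close relative of the latter that was not, *Stim1*, can be set side by side. RefSeq promoter sequences on GRCm38.p6, each of 300 bases from 250 before to 50 after the transcription start, were matched for 8 of the 10 members, all but *Itpr1* and *Atp2a2*. In the sequences below, read along the strand of the gene from 5′ to 3′, capitals mark the GC box GGGCGG or its reverse complement. The windows lie at chr6:146502174-146502473 on the minus strand, chr5:53998273-53998572 on the plus strand and chr7:102267569-102267868 on the plus strand.
Itpr2: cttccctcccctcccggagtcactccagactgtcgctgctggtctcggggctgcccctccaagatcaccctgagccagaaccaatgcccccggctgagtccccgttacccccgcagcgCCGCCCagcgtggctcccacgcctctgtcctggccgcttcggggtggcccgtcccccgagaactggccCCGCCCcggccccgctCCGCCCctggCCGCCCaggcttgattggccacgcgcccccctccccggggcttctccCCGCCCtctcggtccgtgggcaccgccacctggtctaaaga
Stim2: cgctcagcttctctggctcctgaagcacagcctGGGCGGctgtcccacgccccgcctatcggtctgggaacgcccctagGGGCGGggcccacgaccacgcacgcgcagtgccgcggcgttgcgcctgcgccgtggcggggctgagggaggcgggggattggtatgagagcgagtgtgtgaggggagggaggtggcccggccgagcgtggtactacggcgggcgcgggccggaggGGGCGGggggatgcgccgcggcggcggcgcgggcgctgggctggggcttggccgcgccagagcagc
Stim1: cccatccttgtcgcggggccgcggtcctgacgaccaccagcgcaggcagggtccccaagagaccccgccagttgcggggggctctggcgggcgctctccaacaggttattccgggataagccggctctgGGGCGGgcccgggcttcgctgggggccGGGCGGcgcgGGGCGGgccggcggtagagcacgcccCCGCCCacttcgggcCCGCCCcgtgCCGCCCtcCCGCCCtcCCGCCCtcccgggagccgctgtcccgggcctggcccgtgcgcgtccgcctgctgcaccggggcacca

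*Itpr2* has 5 matches to the GC box, *Stim2* has 3 and *Stim1* has 8. They hold 26, 39 and 38 CpG dinucleotides, against a median of 7 over all promoters. Searched on both strands, the GC box was found in all 8 matched members, against 35.6% of all 32807 promoters of this length. CCAAT was found in 4 of them, against 37.4%. The 8 windows were 57.7% to 78.7% GC, against a median of 52.7% over all promoters. Promoters of matched GC content were not compared. No member promoter held the TATA box TATAAA (13.6% of all promoters) or the NFAT core TGGAAA (21.4%), and 2 of them, those of *Itpr3* and *Orai2*, held the E-box CACGTG (7.15%). Members with and without overlap between the groups were alike in holding a GC box and no TATA box within this window. A match is a run of letters and not a measured binding site.

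In control tissue the 4 families were expressed at very different levels. Divided by exonic length to allow a comparison between genes, *Atp2a2* led at 95.5 ± 10.2 CPM per kb (SD, n = 3), higher than 98.3% of the genes tested, followed by *Itpr3* at 53.7 ± 2.76 CPM per kb. A middle group held *Stim2* (16.2 CPM per kb), *Itpr1* (15.2), *Orai2* (10.7), *Stim1* (10.4) and *Orai3* (9.02). Among neighbours in this order, *Stim2* and *Itpr1*, *Itpr1* and *Orai2*, and *Orai2* and *Stim1* overlapped between control libraries. *Orai1* was at 4.18 CPM per kb, *Itpr2* at 1.09, and *Atp2a3* at 0.162, higher than only 11.2% of the genes tested. In mutant tissue *Atp2a2* (60.9 CPM per kb) and *Itpr3* (48.5) still led but overlapped, and *Itpr1*, at 8.72 CPM per kb, stood behind *Orai2*, *Stim1* and *Orai3*, which it preceded in control tissue. The range from *Stim2* down to *Itpr1* was a chain of overlapping neighbours in mutant tissue. The order depends on the length used, since exonic length counts untranslated ends that not every transcript holds. Per kb of coding length, *Atp2a2* still led in control tissue (185.5 ± 19.8 CPM per kb), but *Orai2* (82.4 ± 5.74) came before *Itpr3* (60.4 ± 3.11), and *Stim1* (45.5 ± 1.48) before *Stim2* (36.8 ± 1.70), each without overlap between control libraries.

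**Figure D1:**
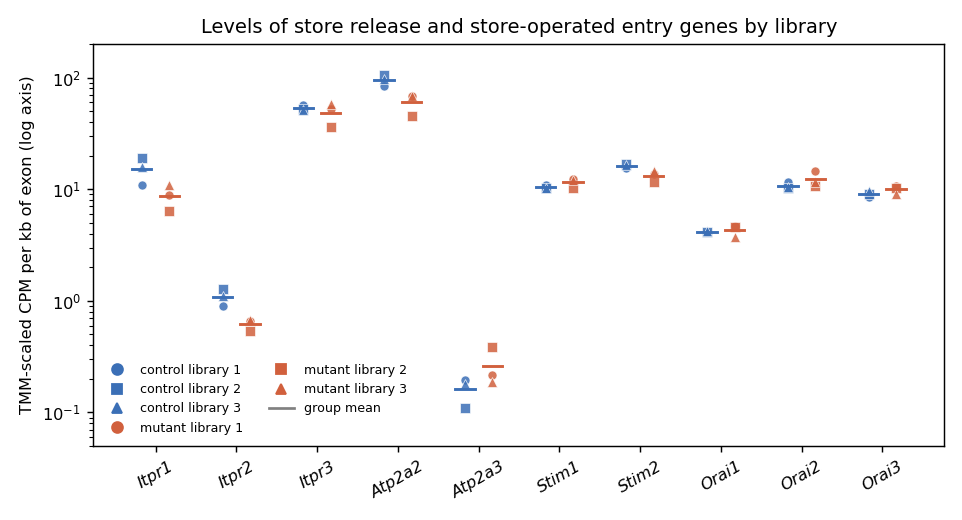
Levels of the 10 genes in each library, as TMM-scaled CPM per kb of annotated exon on a log axis, with control libraries in blue, mutant libraries in orange, 1 symbol shape per library number and a bar at each group mean. *Itpr2*, *Atp2a2* and *Stim2* sit lower in all 3 mutant libraries than in all 3 control libraries, and mutant library 2 is the lowest of the 6 for 5 genes.

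Across all 19330 genes tested, 20.2% passed the edgeR quasi-likelihood test at a Benjamini-Hochberg adjusted p-value under 0.05, with 10.4% higher and 9.84% lower in mutant tissue. Of the 10 members, 2 passed, *Itpr2* and *Atp2a2*, both lower, so members were called about as often as genes in general. Their median log2 fold change was -0.045, with 5 above and 5 below 0, against a median of 0.0074 over all genes tested. In 3 members, *Itpr2*, *Atp2a2* and *Stim2*, all mutant libraries lay below all control libraries, and in none did all lie above. Over all genes tested, the groups did not overlap in 44.7%, with 22.1% lower and 22.6% higher in mutant. Mutant library 2 gave the lowest level of 5 members, *Itpr1*, *Itpr2*, *Itpr3*, *Atp2a2* and *Stim2*.

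**Figure D2:**
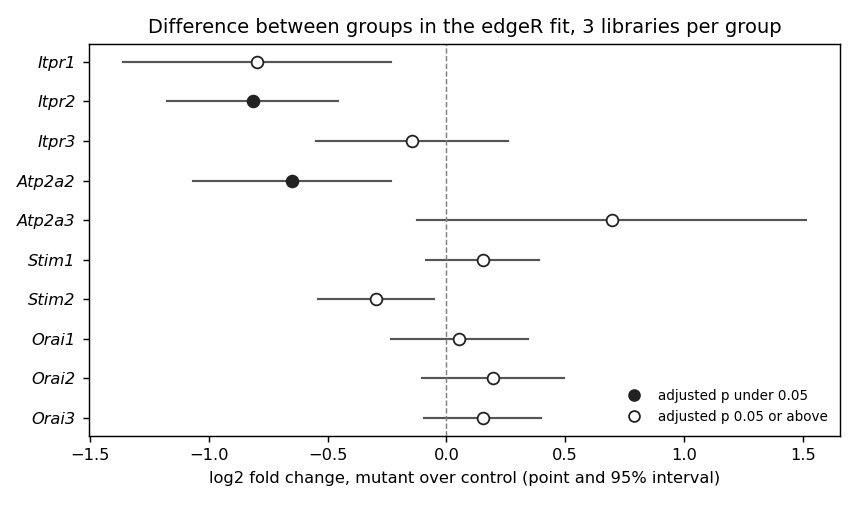
Log2 fold change of each member, mutant over control, with its 95% interval from the edgeR fit of 3 against 3 libraries; filled points have an adjusted p-value under 0.05. Only *Itpr2* and *Atp2a2* are filled, at -0.82 and -0.65, and the intervals of *Itpr1* and *Stim2* also lie below 0.

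The IP3 receptors are the channels through which the ER releases calcium. *Itpr2* (ENSMUSG00000030287.15, mm10 chromosome 6, 146108299 to 146502223, minus strand) codes for the subtype with the highest known affinity for IP3, and was the least abundant of the 3. Its level was 13.4, 18.9 and 16.2 CPM in control libraries 1 to 3 and 9.67, 7.92 and 9.91 CPM in mutant libraries 1 to 3. All mutant libraries lay below all control libraries. The difference was 1.76-fold, a log2 fold change of -0.82 (SE 0.16, 95% interval -1.17 to -0.46, adjusted p = 0.0128, edgeR). In bulk tissue, fewer cells of a type and less RNA per cell cannot be told apart. The call was lost without control library 2 (adjusted p = 0.0616) or control library 3 (adjusted p = 0.0593), and a length offset reduced the log2 fold change to -0.52 (adjusted p = 0.0187). Over all 17 alternatives the adjusted p-value ranged from 7.7e-05 to 0.0616.

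*Itpr1* (ENSMUSG00000030102.11, mm10 chromosome 6, 108213096 to 108551109, plus strand), the subtype best known from neurons and smooth muscle, was at 198, 346 and 289 CPM in control and at 162, 116 and 201 CPM in mutant libraries. Control library 1 fell just below mutant library 3, so the groups overlapped. The log2 fold change was close to that of *Itpr2*, at -0.80 (SE 0.25, 95% interval -1.36 to -0.23), but the spread was wider and the gene did not pass the test (adjusted p = 0.0534, edgeR). It passed in 5 of 18 alternative analyses, including those without control library 1 (adjusted p = 0.0384) and without mutant library 3 (adjusted p = 0.0347), with a range of 0.0063 to 0.180 over all of them. With a length offset the log2 fold change was -0.46. The sample titles hold a letter code, WW for control library 1, OW for the other control libraries and OR for all mutant libraries. The meaning of these letters is not given.

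*Itpr3* (ENSMUSG00000042644.9, mm10 chromosome 17, 27057304 to 27122223, plus strand), the subtype typical of epithelial and secretory cells, was the most abundant IP3 receptor. Levels were 512, 475 and 465 CPM in control libraries and 469, 323 and 520 CPM in mutant libraries. Mutant library 2 was low and mutant library 3 was above every control library, so no direction could be read. It differed by -0.15 on the log2 scale (SE 0.18, 95% interval -0.55 to 0.26, adjusted p = 0.573), and was 0.040 without mutant library 2. The annotated exons of *Itpr3* overlap the antisense gene *Itpr3os* over 2.58% of their length, and whether the authors' counting used strand is not given in the sources used here.

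SERCA pumps refill the store. *Atp2a2* (ENSMUSG00000029467.15, mm10 chromosome 5, 122453513 to 122502225, minus strand), which codes for the widely expressed SERCA2, was at 515, 639 and 589 CPM in control and at 416, 275 and 420 CPM in mutant libraries. The lowest control library was above the highest mutant library. *Atp2a2* fell by 0.65 on the log2 scale, or 1.57-fold (SE 0.18, 95% interval -1.07 to -0.23, adjusted p = 0.0408, edgeR). This call sat close to the threshold. It was lost in 7 of 18 alternatives, among them those without control library 1 (adjusted p = 0.0599), control library 2 (0.142), control library 3 (0.131) or mutant library 1 (0.0630) and that with no filter on low counts (0.0504), while the log2 fold change stayed between -0.75 and -0.47 and the adjusted p-value between 0.0034 and 0.142 over all 18 alternatives. Of the 75-base stretches of *Atp2a2* transcripts, 2.42% also occur in other genes, and with the counts of those genes added where they share at least 20 such stretches the log2 fold change was -0.61 (adjusted p = 0.0470).

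*Atp2a3* (ENSMUSG00000020788.15, mm10 chromosome 11, 72961169 to 72993044, plus strand), coding for SERCA3, a pump known from platelets, lymphoid cells and some epithelia, was rare. It was at 1.04, 0.583 and 0.939 CPM in control and at 1.13, 2.05 and 0.983 CPM in mutant libraries, on 34 to 118 estimated counts per library. Mutant library 2 was high, and the other 2 mutant libraries were within or close to the control range. Its log2 fold change was 0.69 with a wide interval (SE 0.36, 95% interval -0.12 to 1.51, adjusted p = 0.188). Markers of blood cells moved in both directions. Of 7 platelet and red cell markers, 5 were tested, 1 was higher and 3 were lower in mutant tissue, and their sum, mostly haemoglobin, was 442 to 872 CPM in control and 139 to 554 CPM in mutant libraries. The higher one was the platelet integrin gene *Itga2b*, whose groups did not overlap (log2 fold change 1.30, adjusted p = 0.0383) and which was highest in mutant library 2 as *Atp2a3* was, whereas the platelet gene *Pf4* was lower (log2 fold change -0.81, adjusted p = 0.0149). Of 7 leukocyte markers, all tested, 2 were higher, *Cd52* (0.92, adjusted p = 0.0447) and *Fcer1g* (0.86, adjusted p = 0.0434), and none was lower, with sums of 99.8 to 113 CPM in control and 100 to 136 CPM in mutant libraries. The part of these cells in the level of *Atp2a3* was not tested.

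The STIM proteins sense how full the store is. *Stim2* (ENSMUSG00000039156.19, mm10 chromosome 5, 53998499 to 54121057, plus strand), which responds to small falls in store calcium, was at 79.0, 86.5 and 84.3 CPM in control and at 70.0, 59.3 and 74.2 CPM in mutant libraries. The groups did not overlap, with mutant libraries lower. The log2 fold change of -0.30 (SE 0.11, 95% interval -0.54 to -0.05) did not pass the test (adjusted p = 0.0804, edgeR), and none of 17 alternative analyses called it (adjusted p = 0.0504 to 0.353). With a GC offset it was -0.19 (adjusted p = 0.182). *Stim2* has the lowest exonic GC content of the members, 46.9%, inside the third of genes whose median was -0.22.

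*Stim1* (ENSMUSG00000030987.5, mm10 chromosome 7, 102267806 to 102437319, plus strand), the sensor that drives strong store-operated entry, was at 112, 107 and 106 CPM in control and at 128, 107 and 126 CPM in mutant libraries. Mutant library 2 was inside the control range and the other 2 mutant libraries were above it, for a log2 fold change of 0.15 (SE 0.10, 95% interval -0.09 to 0.39, adjusted p = 0.313). With a length offset it was 0.35 and passed the test (adjusted p = 0.0365), the sole alternative of 17 in which it did (range 0.0365 to 0.737).

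The Orai proteins form the channel in the plasma membrane. *Orai1* (ENSMUSG00000049686.14, mm10 chromosome 5, 123015074 to 123030456, plus strand), the main pore of store-operated entry in many cell types, was at 9.58, 9.54 and 9.64 CPM in control and at 10.7, 10.6 and 8.57 CPM in mutant libraries. Its control libraries were nearly identical and its mutant libraries fell on both sides of them. The log2 fold change was 0.055 (SE 0.12, 95% interval -0.23 to 0.34, adjusted p = 0.774), and -0.19 with a GC offset, so its sign depended on the processing. *Orai1* has the highest exonic GC content of the members, 60.8%.

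*Orai2* (ENSMUSG00000039747.11, mm10 chromosome 5, 136147459 to 136170713, minus strand), a subtype known to join *Orai1* in mixed channels, was at 70.4, 61.8 and 63.5 CPM in control and at 88.7, 64.5 and 71.1 CPM in mutant libraries. Its groups overlapped, with mutant library 1 the highest, and the log2 fold change was 0.20 (SE 0.13, 95% interval -0.10 to 0.49, adjusted p = 0.294). *Orai3* (ENSMUSG00000043964.14, mm10 chromosome 7, 127769815 to 127775150, plus strand), the subtype found in mammals alone, was at 18.0, 19.4 and 20.5 CPM in control and at 23.1, 21.7 and 19.5 CPM in mutant libraries. Its groups overlapped as well (log2 fold change 0.15, SE 0.11, 95% interval -0.10 to 0.40, adjusted p = 0.327), and with a GC offset its log2 fold change was -0.019. For all 3 Orai genes the upper bound of the interval was at most 0.49, and a change of that size remains possible.

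**Figure D3:**
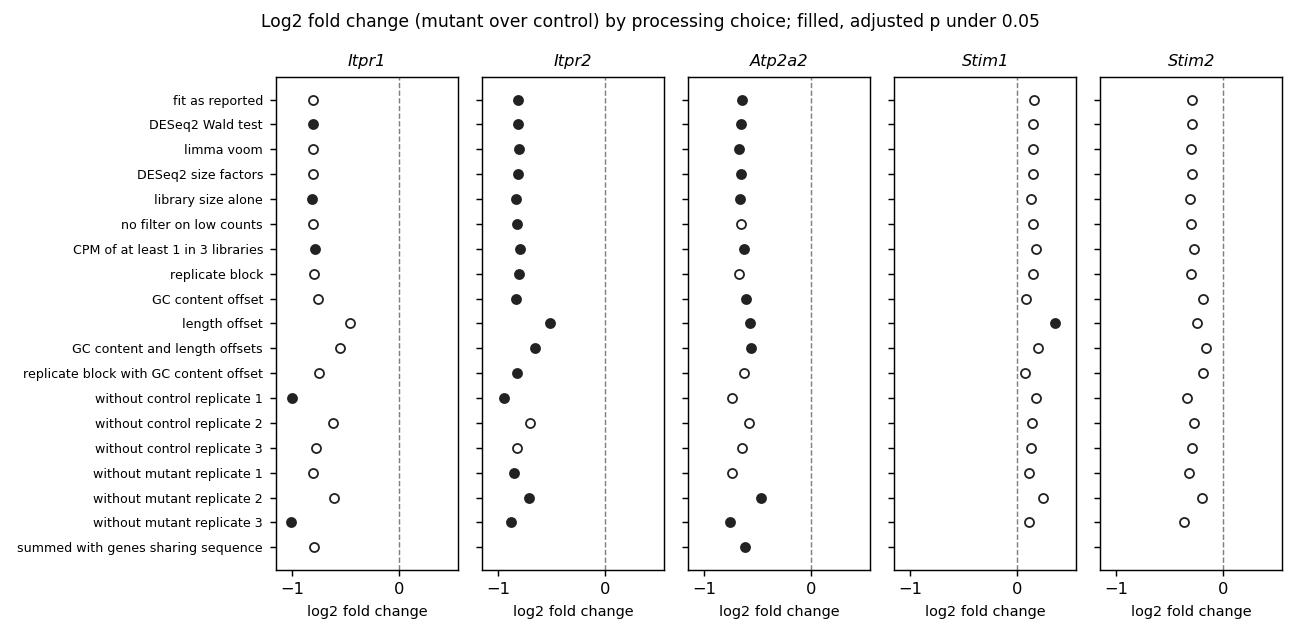
Log2 fold change (mutant over control, horizontal axis) of 5 members under each processing choice (rows), with filled points where the adjusted p-value was under 0.05; rows without a point were not run for that gene. *Itpr2* is filled in most rows and *Atp2a2* loses its call in 7 of 18 alternatives, while *Stim2* is filled in none.

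The make-up of each family was then compared within libraries, as the share of each subtype in the family's summed CPM per kb, with the muscle pump gene *Atp2a1* included among the SERCA pumps. With 3 libraries against 3, the smallest p-value of a two-sided exact permutation test is 0.1, so no share could reach 0.05, and over the 11 shares tested that value adjusts to 0.22. In percentage points of the family, the largest shift by exonic length was in the sensors. *Stim1* made up 41.3%, 37.9% and 38.3% of STIM expression in control and 47.5%, 47.1% and 45.7% in mutant libraries, with *Stim2* making up the rest. The groups did not overlap (39.2% ± 1.85 and 46.8% ± 0.946, SD, n = 3, exact permutation p = 0.1, adjusted 0.22), and the shift was larger than the spread in either group. Expressed as a ratio, *Stim1* stood at 0.645 ± 0.0509 of the level of *Stim2* in control and at 0.879 ± 0.0331 in mutant tissue. Which sensor is the more abundant depends on the length: per kb of coding length the ratio was 1.24 ± 0.0977 and 1.69 ± 0.0637 and the share of *Stim1* 55.3% ± 1.91 and 62.8% ± 0.890, again higher in every mutant library. The family with the largest shift also depends on the length. By coding length it was the IP3 receptors, where the mean share of *Itpr3* went from 63.2% in control to 72.8% in mutant tissue. The difference between the log2 fold changes of *Stim1* and *Stim2* was 0.45, and stayed between 0.41 and 0.51 when any 1 library was left out, but it was 0.27 with a GC offset and 0.60 with a length offset.

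Among IP3 receptors, *Itpr3* made up 76.8% ± 5.46 in control and 83.9% ± 0.717 in mutant tissue (SD, n = 3), without overlap. Its share in control libraries was 82.9%, 72.3% and 75.3%, so control library 1 lay close to the mutant values of 84.6%, 83.9% and 83.2%. The share of *Itpr1* was 21.6% ± 5.25 and 15.0% ± 0.777, with overlap, and that of *Itpr2* was 1.56% ± 0.218 and 1.09% ± 0.145, without overlap. *Atp2a2* made up 99.5% of SERCA expression in control and 99.4% in mutant tissue. The small share of *Atp2a3* was 0.173% ± 0.0641 and 0.476% ± 0.321, without overlap. Each share without overlap had an exact permutation p of 0.1 (adjusted 0.22). Summed over the family, SERCA expression was 96.0 ± 10.4 CPM per kb in control and 61.2 ± 13.4 CPM per kb in mutant tissue, without overlap. The shares of *Orai1*, *Orai2* and *Orai3* overlapped between groups, at 17.5%, 44.8% and 37.7% in control and 16.3%, 46.0% and 37.7% in mutant tissue. Per kb of coding length they also overlapped, but *Orai2* dominated, with 9.14%, 71.5% and 19.3% in control and 8.46%, 72.4% and 19.1% in mutant tissue. By coding length the share of *Itpr3* was 63.2% ± 7.32 and 72.8% ± 1.07, without overlap. Summed Orai expression was 23.9 ± 0.481 and 26.7 ± 2.95 CPM per kb, again without overlap, and the nearest libraries were at 24.2 and 24.5 CPM per kb. For the SERCA and the Orai sums the exact permutation p was 0.1, unadjusted. The Orai sum was not tested with a GC offset, with which *Orai1* and *Orai3* changed sign. The sums of the other families overlapped. Their means were 69.9 and 57.8 CPM per kb for the IP3 receptors and 26.7 and 24.8 CPM per kb for STIM.

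**Figure D4:**
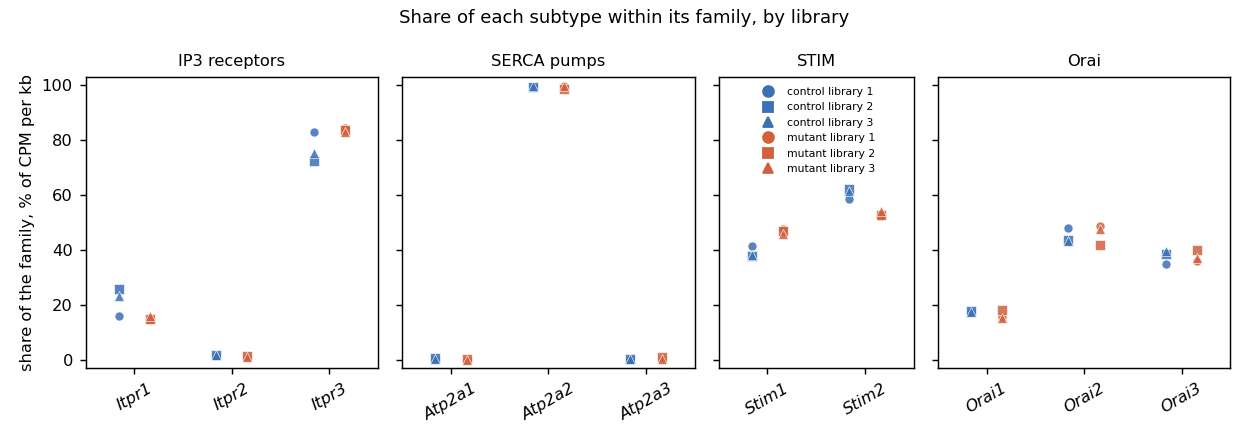
Share of each subtype in the summed CPM per kb of its family, in percent, for each library, with control libraries in blue and mutant libraries in orange. The *Stim1* share is 37.9% to 41.3% in control and 45.7% to 47.5% in mutant libraries, whereas the shares of the Orai subtypes overlap.

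The rest of the pathway was described with 6 further gene lists, each read against the 20.2% of all genes that passed the test. Of 23 genes for IP3 production and turnover, 22 were tested, 2 were higher and 1 was lower in mutant tissue, with a median log2 fold change of -0.031. *Plcd3*, a phospholipase C that makes IP3, rose from 33.6 ± 1.64 to 59.1 ± 11.4 CPM (log2 fold change 0.81, adjusted p = 0.0081). *Itpkc*, a kinase that converts IP3 to a form that no longer opens the receptors, rose from 18.0 ± 0.394 to 24.4 ± 0.521 CPM (0.44, adjusted p = 0.0149). *Plce1*, a phospholipase C regulated by Ras proteins, fell from 9.86 ± 1.68 to 6.21 ± 0.428 CPM (-0.67, adjusted p = 0.0235).

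Among other store channels, the pump SERCA1 and pump regulators, 20 of 23 genes were tested, 2 were higher and 3 were lower, with a median of -0.15. *Homer1*, a scaffold protein that binds IP3 and ryanodine receptors, fell from 21.7 ± 1.23 to 12.1 ± 2.78 CPM (log2 fold change -0.84, adjusted p = 0.0150). *Tmco1*, an ER membrane protein that forms a leak channel when the store is overfull, fell from 45.4 ± 1.46 to 33.4 ± 3.93 CPM (-0.44, adjusted p = 0.0248). *Ryr1*, the ryanodine receptor of skeletal muscle, fell from 1.18 ± 0.119 to 0.578 ± 0.0286 CPM (-1.02, adjusted p = 0.0237). Skeletal muscle markers moved with it: 9 of the 11 tested were lower and none higher, and the summed level of all 12 was 14.6 to 46.7 CPM in control and 4.13 to 6.19 CPM in mutant libraries, with no marker at 0 in every library. Their part in the level of *Ryr1* was not tested. The 2 called genes left, named after their values were seen, were *Jph3*, which ties ER to plasma membrane (log2 fold change 0.91, adjusted p = 0.0276), and *Fkbp1b*, which binds ryanodine receptors (0.60, adjusted p = 0.0278). Alternatives were not run for these 2 genes.

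In the list closest to the sensors and entry channels, regulators of STIM and Orai with the TRPC channels, none of 14 tested genes passed the edgeR test, although 3 had an unadjusted p-value under 0.05 and DESeq2 called 1. The median was -0.0039. The smallest p-values were those of *Cracr2b*, a relative of the Orai regulator *Cracr2a* (3.05 ± 0.285 and 4.47 ± 0.655 CPM, log2 fold change 0.55, adjusted p = 0.0555), the cation channel gene *Trpc1* (-0.44, adjusted p = 0.118) and *Tmem110*, which codes for the STIM-activating protein STIMATE (0.43, adjusted p = 0.123).

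Calcium-binding proteins inside the ER hold calcium in the store. The list of 16 such genes also held *Selenot* and *Selenok*, which code for selenoproteins of the ER membrane and not for luminal calcium-binding proteins. Of the 16, all tested, 3 were lower and none was higher, beside 20.2% called over all genes tested. A log2 fold change below 0 was seen in 14 of the 16, and in 9536 of all 19330 genes tested. The median was -0.26 against 0.0074 over all genes tested. Calcium removal (11 of 15 below 0) and other store channels (13 of 20) also leaned lower. The 3 remaining lists had 11 of 22, 7 of 14 and 8 of 15 below 0. *Rcn1* fell from 121 ± 14.8 to 70.1 ± 5.40 CPM (log2 fold change -0.79, adjusted p = 0.0053) and *Rcn2* from 102 ± 8.83 to 75.3 ± 8.64 CPM (-0.44, adjusted p = 0.0341), and both code for reticulocalbins, EF-hand proteins of the secretory pathway. *Selenot*, which has a redox role, fell from 152 ± 2.87 to 86.5 ± 14.2 CPM (-0.81, adjusted p = 0.0066).

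The list drawn up for calcium removal across the plasma membrane and into the Golgi held 15 genes, of which 2 were higher and 1 was lower, with a median of -0.23. The products of *Slc8b1* and *Slc24a5*, both in this list, are not plasma membrane exchangers. *Atp2c1*, the Golgi calcium and manganese pump, fell from 68.6 ± 2.23 to 42.4 ± 11.8 CPM (log2 fold change -0.69, adjusted p = 0.0300). The exchanger genes *Slc24a1* (1.70, adjusted p = 0.0279) and *Slc24a5* (1.49, adjusted p = 0.0391) were higher in mutant tissue, but at 4 to 17 and 11 to 46 estimated counts per library. Of 15 genes for mitochondrial calcium uptake, 1 was lower and none was higher, with a median of -0.019. This was *Vdac3*, a channel of the outer mitochondrial membrane (33.4 ± 1.38 to 25.3 ± 1.06 CPM, -0.40, adjusted p = 0.0203). Its relative *Vdac1* (-0.28, adjusted p = 0.0621) and *Mcur1*, a regulator of the mitochondrial uniporter (-0.40, adjusted p = 0.150), did not pass.

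Many calls in these lists were lost when 1 library was left out. The number of genes called over all genes tested also moved widely with the library left out, as given in the closing section. These losses are therefore not read as particular to the genes named. *Plcd3*, *Rcn1* and *Selenot* were called whichever library was left out. Without control library 2, and likewise without control library 3, *Itpkc*, *Plce1*, *Homer1*, *Ryr1*, *Tmco1*, *Rcn2*, *Slc24a1*, *Slc24a5*, *Atp2c1* and *Vdac3* were no longer called. Leaving out control library 1 also ended the calls of *Ryr1*, *Tmco1*, *Slc24a1*, *Slc24a5* and *Atp2c1*. Calls were also lost without mutant library 1 for *Tmco1*, *Atp2c1*, *Slc24a5* and *Vdac3*, without mutant library 2 for *Rcn2*, *Slc24a1*, *Slc24a5* and *Atp2c1*, and without mutant library 3 for *Rcn2*. With a GC offset *Itpkc*, *Tmco1*, *Rcn2*, *Atp2c1* and *Vdac3* were not called, and with a length offset *Plce1*, *Ryr1* and *Atp2c1* were not. DESeq2 did not call *Slc24a1* (adjusted p = 0.0732), voom did not call *Slc24a5* (0.0593), and neither was called with no filter on low counts. Every gene named as called in this paragraph kept its direction in all alternatives run, with log2 fold changes of 0.55 to 0.90 for *Plcd3*, -0.89 to -0.65 for *Rcn1*, -0.92 to -0.47 for *Selenot* and -0.44 to -0.054 for *Vdac3*.

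**Figure D5:**
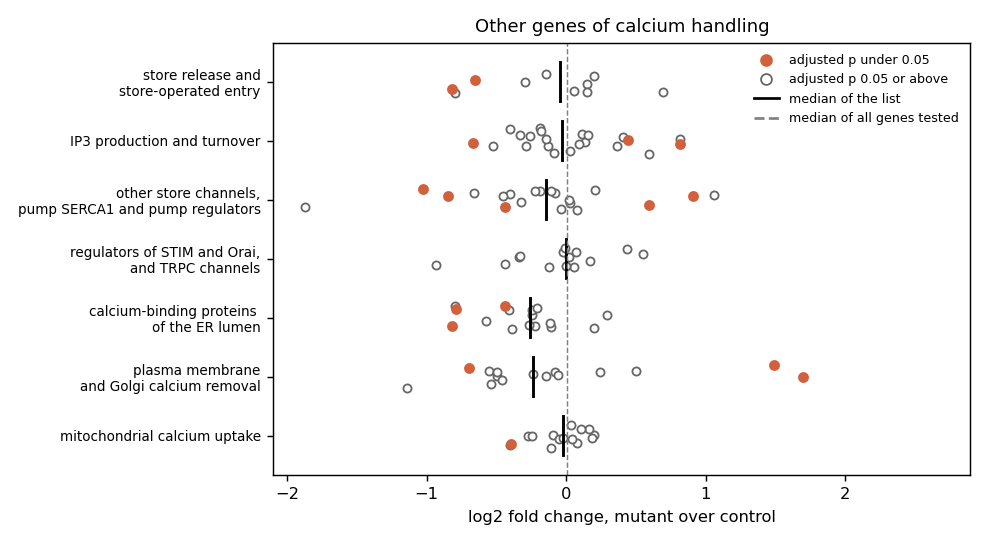
Log2 fold change (mutant over control) of each gene tested in the 10 members and in 6 lists of other calcium-handling genes, with filled points at an adjusted p-value under 0.05, a black bar at the median of each list and a dashed line at the median of all genes tested, 0.0074. The list of ER calcium-binding proteins, with its 2 membrane selenoproteins, has its median at -0.26 and that of calcium removal at -0.23, and the regulators of STIM and Orai hold no filled point.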

How the data were processed

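Dental pulp was dissected from mandibular first molars at PN3.5, and RNA-seq libraries were grouped by the genotype in the labels (3 control, 3 mutant). The table used here, deposited by the authors, holds estimated counts for each gene without normalization, made per the labels and methods from single-end reads on mm10. The methods name TopHat, while the submitters' processing notes name STAR 2.6.1d and Partek. How reads fitting several genes were divided, strand and annotation are not given in the sources used here. A second table deposited by the authors, of normalized signal, was not used, nor were 6 columns of other samples in the count table.

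The design had assumed whole counts. The estimated counts (48.2% to 49.8% whole, zeros included) were rounded, scaled by TMM and filtered with filterByExpr, and the groups were compared with edgeR 4.0.16 (quasi-likelihood test, R 4.3.3) over 19330 genes with Benjamini-Hochberg adjustment at 0.05. Values per kb used exonic lengths of GENCODE release M21, which matched 27484 of the 27506 genes, and shares used exact permutation tests. Alternatives were DESeq2 1.42.0, limma 3.58.1 (voom), other scalings, filters, GC and length offsets fitted per library, a block on the label's index number, summing of genes sharing sequence, other lengths for shares, and leaving out each library. Scripts were tested on simulated data.

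Named genes were the 10 members, *Ror2* and, per other list, the 3 genes ranked first by p-value. Members and lists were chosen with earlier results of these data known. Libraries held 56134770 to 62628940 counts, and the biological coefficient of variation in the fit was 18.7%. Intervals on fold changes cover 95%.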

Additional observations from a re-analysis of the deposited data

How the results depend on the processing

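The direction of *Itpr1*, *Itpr2*, *Atp2a2*, *Atp2a3*, *Stim1*, *Stim2* and *Orai2* was the same under every alternative run. *Itpr3* changed sign with a length offset (log2 fold change 0.014) and without mutant library 2 (0.040; -0.29 to 0.040 over the left-out libraries), *Orai1* with a GC offset (-0.19), a length offset (-0.037), both offsets (-0.25) and the replicate block with a GC offset (-0.20), and *Orai3* with a GC offset (-0.019), both offsets (-0.085) and the replicate block with a GC offset (-0.019). The index numbers in the labels run over the same 3 values in both groups, but same-numbered libraries did not deviate together (correlations of -0.100, -0.080 and -0.0038), so they were not taken as pairs. The study's methods mention 3 pairs of samples and do not say which libraries form a pair. A block on any other pairing was not run. With the replicate block, 2013 genes were called (1012 higher, 1001 lower) in place of 3906, and 1291 with the block and a GC offset; 1 member, *Itpr2*, was called in both, as it was with no filter on low counts. *Atp2a2* had an adjusted p-value of 0.0722 with the replicate block and 0.0907 with the block and a GC offset. Of the genes named in the other lists, the block ended the calls of *Itpkc*, *Plce1*, *Ryr1*, *Tmco1*, *Rcn2*, *Slc24a1*, *Slc24a5* and *Vdac3*, and the block with a GC offset those of all named called genes for which alternatives were run but *Plcd3* and *Rcn1*. Both offsets ended those of *Itpkc*, *Plce1*, *Homer1*, *Tmco1*, *Rcn2*, *Atp2c1* and *Vdac3*. Leaving out 1 library at a time gave 872 to 5001 genes and 0 to 3 members. Without control library 2 or 3 no member was called.

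For the other lists, leaving out 1 library gave 1 to 7 called genes for IP3 production, 0 to 7 for other store channels, 0 to 2 for regulators of STIM and Orai, 2 to 7 for ER lumen proteins, 0 to 4 for calcium removal and 0 to 1 for mitochondrial uptake. DESeq2 called 7 genes for IP3 production, 1 regulator of STIM and Orai and 2 mitochondrial genes. No filter on low counts left 1 gene for calcium removal, as did a CPM of at least 1 in 3 libraries. The replicate block left 1 gene for IP3 production, 1 for calcium removal and 0 mitochondrial genes. A GC offset gave 3 genes for other store channels and 0 mitochondrial genes, a length offset 3, 5 and 2 for other store channels, ER lumen proteins and mitochondrial uptake, and both offsets 3 for other store channels. The replicate block with a GC offset left 1 gene each for IP3 production, other store channels and ER lumen proteins, and 0 for calcium removal and mitochondrial uptake. The cause of these changes was not tested.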
